A study of Homo sapiens with 18 samples.

Results

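Ser5-phosphorylated RNA polymerase II (Pol II) was examined at 6 genes for short noncoding RNAs: RNU11, RNU12 and RNU4ATAC of the minor spliceosome, RNU7-1 (U7), SNORD118 (U8) and SNORD3A (U3). The genes were located by fixed hg19 windows of about the size of a promoter and gene, and every region of the deposited count table that overlapped a window was taken. Of the 12123 regions in the table, 5 qualified, 1 each for RNU11, RNU4ATAC, RNU12, RNU7-1 and SNORD118. The SNORD3A window had no region. These genes were chosen by gene class with their measured Ser5 values at 2 h and 4 h against DMSO already known, so those contrasts are a description and carry no test.

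The cells were Rh30, an alveolar rhabdomyosarcoma line driven by the fusion transcription factor PAX3-FOXO1. All groups carried FKBP-tagged PAX3-FOXO1, and the labels do not say whether the line is a single clone. The small molecule dTAG47 directs an FKBP-tagged protein to degradation. Cells received 500 nM dTAG47 for 2 h, 500 nM dTAG47 for 4 h, or DMSO, the solvent, for which no duration is labelled. Each group had 2 ChIP-seq libraries made with an anti-Pol II Ser5 antibody, called A and B as in the column names. The labels name no separate cultures, so p-values and SDs measure only the spread between libraries, which may be technical. The degradation of the fusion protein was not measured in these counts.

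Most introns are removed by the major spliceosome, and a small class, the U12-type introns, by the minor one. In the minor spliceosome U11 and U12 recognise the start and the branch point of the intron, while U4atac is paired with U6atac and releases it when the complex is activated. U7 guides the cleavage that forms the end of replication-dependent histone mRNAs, which lack a poly(A) tail. U8 and U3 are box C/D small nucleolar RNAs needed for the processing of ribosomal RNA, U8 for the large and U3 for the small ribosomal subunit. All 6 RNAs are made by Pol II from their own compact promoters, which bind the SNAPc complex, and the Integrator complex cleaves the ends of Pol II-made snRNA transcripts. Serine 5 of the Pol II C-terminal domain is phosphorylated early in transcription, so the mark is found mostly near start sites.

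The total count per library was 1445058 and 1343568 at 2 h, 1585579 and 962251 at 4 h, and 1792013 and 1430934 in DMSO. Values below are CPM, the counts scaled to a common library total with TMM factors. TMM sets the bulk of regions equal between libraries and would therefore hide a uniform gain or loss. Each region spans 400 bases from start to end, and levels can therefore be compared between regions per length. The 3 highest regions of the table took 2.61% and 3.21% of counts at 2 h, 2.61% and 4.17% at 4 h, and 1.77% and 2.61% in DMSO.

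At every one of the 5 regions, each dTAG47 library had more Ser5 Pol II than either DMSO library. Among all regions, both libraries of a time stood above both DMSO libraries at 21.9% at 2 h and 20.2% at 4 h. The share of all regions with every treated library above was not counted. The levels were 1.84-fold to 2.75-fold those of DMSO at 2 h and 1.61-fold to 2.60-fold at 4 h. Together the 5 regions took 0.255% (95% Wilson interval 0.247% to 0.264%) and 0.237% (0.229% to 0.246%) of all counts in 2 h libraries A and B. In 4 h libraries A and B they took 0.222% (0.215% to 0.230%) and 0.217% (0.208% to 0.226%). In DMSO libraries A and B the share was 0.109% (0.104% to 0.114%) and 0.111% (0.106% to 0.117%). The labels name no molecular identifiers, and these intervals cover counting error only. The shares are scaled by the library total and use no TMM factor, and the lowest treated library stood above both DMSO libraries. They restate contrasts known when the genes were chosen, so they are a description and no test.

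**Figure D1:**
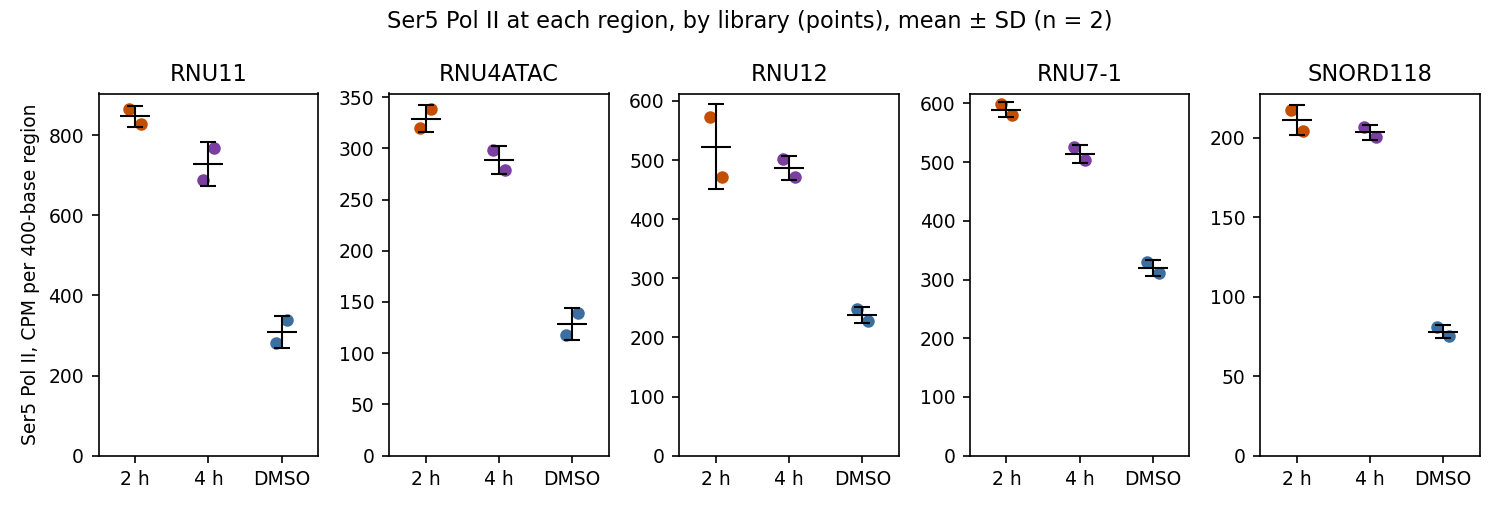
Ser5 Pol II in CPM per region (vertical axis, from 0, own scale per gene) in the 2 libraries each of 2 h dTAG47, 4 h dTAG47 and DMSO, with mean and SD (n = 2). The 4 dTAG47 points lie above both DMSO points at all 5 regions, and for RNU12 the 2 h points are 573 and 472 CPM. Among all regions of the table, both libraries of a time lie above both DMSO libraries at 21.9% at 2 h and 20.2% at 4 h.

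U11 is the RNA that recognises the start of U12-type introns. The region in the RNU11 window lay on chromosome 1 at 28975143 to 28975543. It had 866 and 829 CPM at 2 h and 689 and 767 CPM at 4 h, against 281 and 337 CPM in DMSO. The groups did not overlap, and the lower of the 2 h libraries was 2.46 times the higher DMSO library. The log2 fold change was 1.46 at 2 h (SE 0.17) and 1.24 at 4 h (SE 0.17). RNU11 had the highest Ser5 level of the 5 regions under dTAG47, at 13.2 times the median region at 2 h, 11.3 times at 4 h and 4.85 times in DMSO. By level it stood 20th among all regions at 2 h, 32nd at 4 h and 131st in DMSO.

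U12 pairs with the branch point of the same introns. Its region was on chromosome 22 at 43011223 to 43011623. The RNU12 region had 573 and 472 CPM at 2 h and 502 and 472 CPM at 4 h, against 247 and 228 CPM in DMSO. Its 2 h libraries were the most divergent pair of any member and group, with a mean of 523 ± 71.6 CPM (SD, n = 2), yet both exceeded the DMSO libraries. The log2 fold change of RNU12 was 1.14 at 2 h (SE 0.16) and 1.03 at 4 h (SE 0.16).

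U4atac chaperones U6atac into the minor spliceosome, and inherited variants of RNU4ATAC cause a form of primordial dwarfism. The RNU4ATAC region was on chromosome 2 at 122288541 to 122288941. It had 320 and 338 CPM at 2 h and 298 and 279 CPM at 4 h, against 118 and 140 CPM in DMSO. No treated library fell within the DMSO range, and the log2 fold change was 1.36 at 2 h (SE 0.15) and 1.17 at 4 h (SE 0.15). Its Ser5 level exceeded that of 98.7% of all regions at 2 h, 98.3% at 4 h and 89.0% in DMSO.

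RNU7-1 encodes U7, the guide for histone mRNA ends, and its region was on chromosome 12 at 7053136 to 7053536. The RNU7-1 region had 598 and 580 CPM at 2 h and 526 and 504 CPM at 4 h, against 330 and 311 CPM in DMSO. Here too the groups did not overlap. The log2 fold change of RNU7-1, 0.88 at 2 h (SE 0.16) and 0.68 at 4 h (SE 0.16), was the smallest of the 5 at both times. In DMSO RNU7-1 had the highest mean level of the 5, 320 ± 13.6 CPM (SD, n = 2), and was 118th among all regions.

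SNORD118 encodes U8, whose variants cause a leukoencephalopathy with calcifications and cysts. The SNORD118 region lay on chromosome 17 at 8076517 to 8076917. It had 218 and 205 CPM at 2 h and 207 and 200 CPM at 4 h, against 81.0 and 75.3 CPM in DMSO. The 4 treated libraries were close together, and the lowest of them was 2.47 times the higher DMSO library. The log2 fold change was 1.43 at 2 h (SE 0.15) and 1.38 at 4 h (SE 0.15), the second largest of the 5 at 2 h and the largest at 4 h. SNORD118 had the lowest level of the 5 in each group, at 3.28 times the median region at 2 h, 3.16 times at 4 h and 1.22 times in DMSO.

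For SNORD3A, which encodes U3, no region lay between 19090300 and 19092600 on chromosome 17, so no level can be given. The table holds regions selected upstream of the counts, and a missing region does not show an absence of Pol II. The nearest regions were 75.4 kb before the window, at 19014454 to 19014854, and 48.0 kb after it, at 19140643 to 19141043. Their log2 fold changes were 0.27 (SE 0.16) and -0.22 (SE 0.15) at 2 h and of 0.50 (SE 0.16) and -0.32 (SE 0.16) at 4 h, none past the threshold. RefSeq annotates SNORD3C beside SNORD3A. U3 genes exist in near-identical copies that short reads cannot always separate, and no source used here states the authors' treatment of such reads.

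With all 12123 regions in 1 fit and p-values adjusted over all of them, 5 of 5 regions were called higher at 2 h and 5 of 5 at 4 h (edgeR quasi-likelihood test, threshold 0.05 after Benjamini-Hochberg adjustment). Across the deposited regions 2.22% of regions were called higher at 2 h and 1.52% at 4 h. Both libraries stood above both DMSO libraries at 21.9% of all regions at 2 h and at 20.2% at 4 h. Nothing is read from the members' counts, since these contrasts were known when the genes were chosen, and both times share the DMSO libraries. The median log2 fold change of the 5 was 1.36 at 2 h and 1.17 at 4 h, beside medians of -0.01 and -0.01 over all regions. By log2 fold change at 2 h, RNU11, SNORD118, RNU4ATAC, RNU12 and RNU7-1 ranked 8th, 9th, 12th, 21st and 66th of all regions, and at 4 h 8th, 6th, 14th, 32nd and 156th. The 269 rises over all regions at 2 h became fewer when DMSO library A, 2 h library A or 2 h library B was left out. They became more when DMSO library B, 4 h library A or 4 h library B was left out. The 184 rises at 4 h became 89 without DMSO library A, 314 without DMSO library B and 93 without 4 h library B. Across all regions the rises at 2 h and 4 h numbered 96 and 53 with DESeq2, 166 and 120 with total count scaling, and 629 and 540 with a replicate block by column letter.

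**Figure D2:**
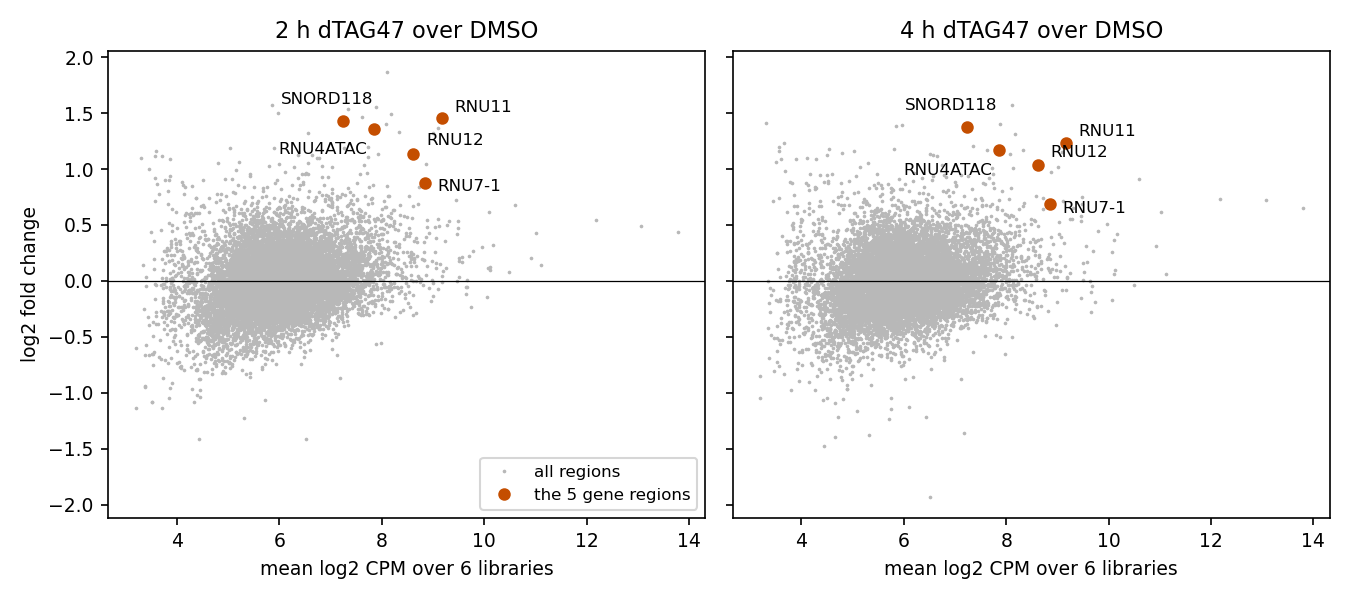
Log2 fold change (vertical axis) against mean log2 CPM over the 6 libraries (horizontal axis) for all 12123 regions in grey and the 5 gene regions in orange, for 2 h over DMSO (left) and 4 h over DMSO (right). The 5 regions lie in the upper part of the cloud at both times. RNU7-1 is lowest of them at 0.88 and 0.68, ranking 66th and 156th of all regions.

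To show the members beside each other without a scaling factor, counts at the other 4 regions were divided by the count at RNU7-1 in the same library. RNU7-1 was taken as the denominator because it had the smallest log2 fold change, so ratios to it were bound to be higher on average under dTAG47. The ratios also restate the counts that were known when the genes were chosen, so they are given as values only. For RNU11 the ratio was 1.45 and 1.43 at 2 h and 1.31 and 1.52 at 4 h, against 0.851 and 1.09 in DMSO. For RNU4ATAC it was 0.534 and 0.583 at 2 h and 0.567 and 0.554 at 4 h, against 0.357 and 0.449 in DMSO. All treated values of both genes exceeded both DMSO values.

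The RNU12 ratio was 0.958 and 0.814 at 2 h and 0.954 and 0.937 at 4 h, against 0.750 and 0.733 in DMSO. The SNORD118 ratio was 0.364 and 0.353 at 2 h and 0.393 and 0.397 at 4 h, against 0.245 and 0.242 in DMSO. For these genes, too, the treated ratios lay above both DMSO ratios, a direction set in advance by the choice of RNU7-1 as denominator. With 2 libraries against 2, an exact two-sided permutation test cannot give a p below 0.333, and none is reported. Among the 6 pairs without RNU7-1 the ratios varied. RNU12 over SNORD118 was 2.63 and 2.31 at 2 h and 2.43 and 2.36 at 4 h, against 3.05 and 3.03 in DMSO, and so lay below DMSO at both times. RNU11 over RNU12 was 1.51 and 1.76 at 2 h and 1.37 and 1.63 at 4 h, against 1.14 and 1.48 in DMSO, above DMSO at 2 h and overlapping it at 4 h. RNU11 over RNU4ATAC was likewise above DMSO at 2 h, with 2.71 and 2.45 against 2.39 and 2.42, and overlapped it at 4 h, with 2.31 and 2.75. RNU4ATAC over SNORD118, at 1.47 and 1.65 at 2 h and 1.44 and 1.39 at 4 h against 1.45 and 1.85 in DMSO, lay below DMSO at 4 h by a narrow margin and overlapped it at 2 h. RNU4ATAC over RNU12 overlapped DMSO at both times, with 0.558 and 0.717 at 2 h and 0.594 and 0.591 at 4 h, against 0.476 and 0.613. RNU11 over SNORD118 was 3.97 and 4.05 at 2 h and 3.33 and 3.83 at 4 h, against 3.47 and 4.48 in DMSO, so that the treated values overlapped the DMSO range.

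**Figure D3:**
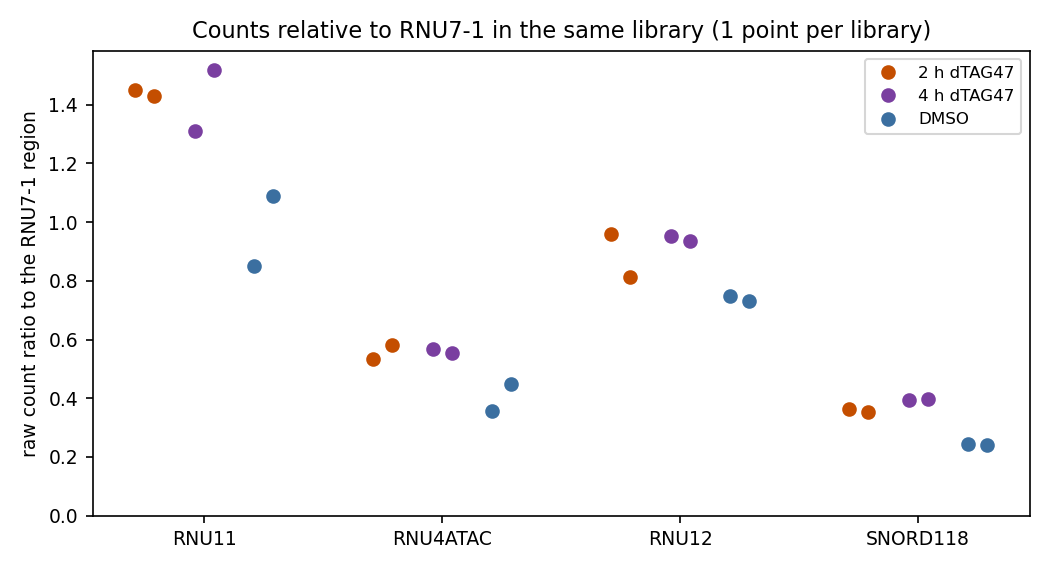
Raw count at RNU11, RNU4ATAC, RNU12 and SNORD118 divided by the raw count at RNU7-1 in the same library (vertical axis, from 0), 1 point per library for 2 h dTAG47, 4 h dTAG47 and DMSO. For all 4 genes the dTAG47 points lie above both DMSO points, most closely for RNU12. There the lowest treated ratio is 0.814 and the higher DMSO ratio 0.750. RNU7-1 was made the denominator for its smallest log2 fold change, which set the direction of these ratios in advance.

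In order of level, RNU11 came first and was followed by RNU7-1, RNU12, RNU4ATAC and SNORD118 in 5 of the 6 libraries, and in DMSO library A RNU7-1 stood above RNU11. In DMSO the means of RNU11 (309 ± 40.02 CPM) and RNU7-1 (320 ± 13.6 CPM) differed by less than their spread (SD, n = 2 each). At 2 h RNU7-1 (589 ± 13.0 CPM) and RNU12 (523 ± 71.6 CPM) differed by less than the SD of RNU12. At 4 h the same pair had 515 ± 15.3 and 487 ± 20.9 CPM, and the lower RNU7-1 library and the higher RNU12 library were 504 and 502 CPM. The other neighbours in the order were separated by more than the SDs in each group.

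The contrast of 4 h with 2 h did not define the genes, although the 2 h and 4 h libraries had entered the choice. None of the 5 regions was called, and 0% of all regions were called in either direction (edgeR, lowest adjusted p = 0.998). At an unadjusted p under 0.05, 145 regions were higher and 251 lower, and DESeq2 also called 0, with 33 regions under that p. The log2 fold change of 4 h over 2 h was -0.22 for RNU11 (95% interval -0.55 to 0.10), -0.19 for RNU4ATAC (-0.48 to 0.10) and -0.19 for RNU7-1 (-0.50 to 0.11). For RNU12 it was -0.10 (-0.41 to 0.21) and for SNORD118 -0.05 (-0.33 to 0.23). Without 2 h library A the RNU12 value was 0.05. Each of the 5 edgeR adjusted p-values was 0.998. In linear terms the intervals run from 0.685-fold at the lowest, for RNU11, to 1.17-fold at the highest, for SNORD118, and changes within them cannot be told from none at this depth and number of libraries. Both 4 h libraries lay below both 2 h libraries at RNU11, RNU4ATAC and RNU7-1, an arrangement found at 16.4% of all regions.

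**Figure D4:**
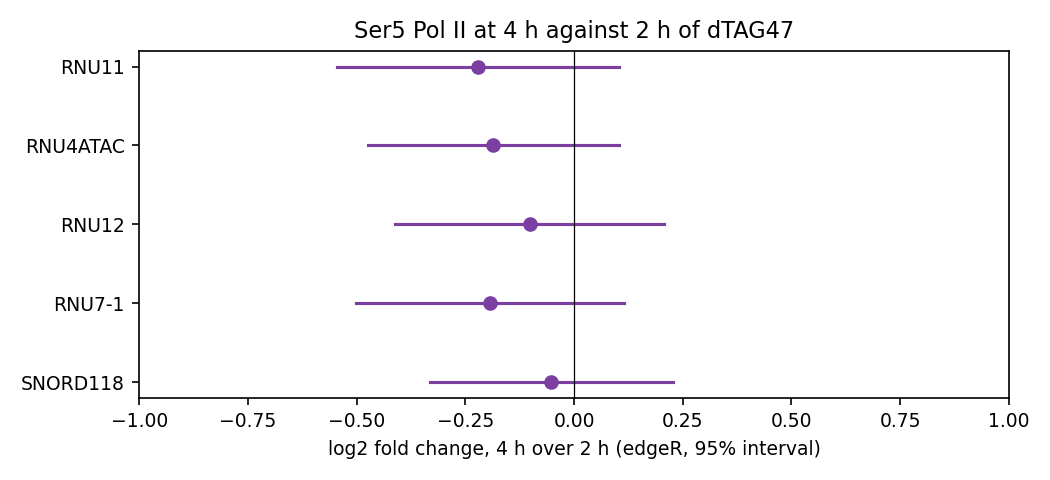
Log2 fold change of Ser5 Pol II at 4 h over 2 h of dTAG47 (horizontal axis) for each of the 5 regions, with its 95% interval from the edgeR fit. All 5 estimates are below 0, between -0.22 and -0.05, and all 5 intervals include 0.

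The neighbourhood of each gene is given as a local description. The genes were chosen with their contrasts against DMSO known, so a difference from the neighbours carries no test. Within 100 kb of the 6 windows lay 23 other regions, whose median log2 fold change was 0.09 at 2 h, while at 4 h it was 0.11. Of these, 1 was called higher at each time and 0 lower. That region, on chromosome 1 at 28908133 to 28908533, had log2 fold changes of 0.76 at 2 h (SE 0.15, edgeR adjusted p = 0.00135) and 0.54 at 4 h (SE 0.15, adjusted p = 0.0451), and lay 65.5 kb before the RNU11 window. The nearest region to RNU11, 5.23 kb before it, had 124 ± 14.7 CPM at 2 h, 127 ± 28.9 CPM at 4 h and 105 ± 13.6 CPM in DMSO (SD, n = 2 each). Likewise the nearest region to RNU7-1, 5.77 kb before it, had 128 ± 5.10 CPM at 2 h, 115 ± 17.0 CPM at 4 h and 128 ± 14.9 CPM in DMSO. Neither was called. RNU4ATAC had no other region within 100 kb, and its nearest neighbour was 118 kb away.

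Relative to the summed counts of its neighbours within 100 kb, again in the same library, the RNU12 region stood at 3.25 and 3.07 at 2 h and 2.99 and 3.14 at 4 h, against 1.45 and 1.49 in DMSO. This ratio was 2.15-fold and 2.09-fold that of DMSO at 2 h and 4 h. The corresponding folds were 2.04 and 1.89 for RNU11, 1.63 and 1.52 for RNU7-1, and 2.53 and 2.38 for SNORD118. With neighbours within 500 kb they were 2.29 and 2.05 for RNU11 and 1.93 and 2.05 for RNU12. RNU7-1 then had 1.61 and 1.46, and SNORD118 2.43 and 2.34. These folds restate contrasts known when the genes were chosen and are given as values only. For RNU4ATAC the 4 neighbours within 500 kb were used, which gave 1.72 and 1.71. One of those 4, on chromosome 2 at 121832563 to 121832963, was itself called higher at both times, with log2 fold changes of 1.10 (SE 0.15, edgeR adjusted p = 2.58e-06) and 0.81 (SE 0.16, adjusted p = 0.00155).

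**Figure D5:**
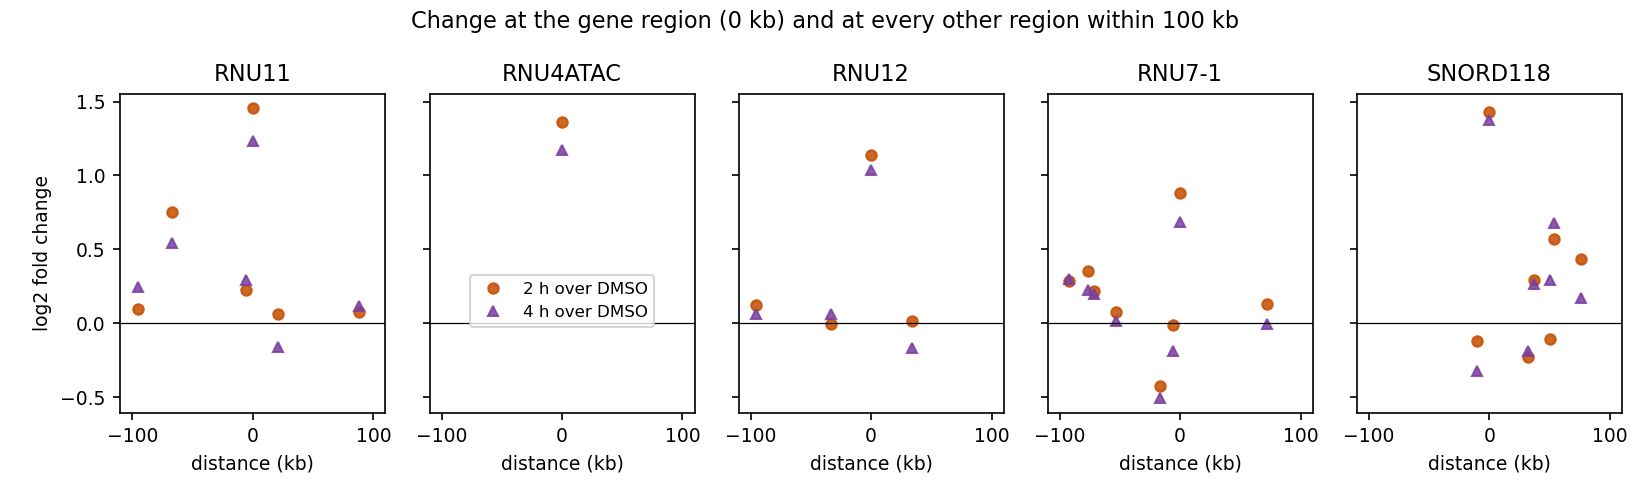
Log2 fold change over DMSO at 2 h (circles) and 4 h (triangles) for the gene's own region at 0 kb and every other region within 100 kb, by distance from the centre of the gene's region. In each panel with other regions the gene's own region is the highest point at both times, and the RNU4ATAC panel has no other region. The genes were chosen with these changes known, so this is a description.

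Other genes share these positions. In RefSeq names, which come from another genome build and were used for neighbourhood only, RNU4ATAC lies within CLASP1, SNORD118 overlaps TMEM107, RNU7-1 overlaps C12orf57, RNU11 overlaps TAF12-DT and RNU12 has POLDIP3 beside it. The annotated RNAs are short, 135 bases for U11, 130 for U4atac, 150 for U12, 63 for U7 and 137 for U8, so each is shorter than the region counted. ChIP-seq reads carry no strand of transcription, and Pol II on the small RNA gene and on its neighbour cannot be told apart within a region.

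Away from the 5 genes, the regions with the most similar profile over the 6 libraries were sought among the 10364 regions that averaged 50 counts or more. Likeness was the root-mean-square distance, in log2 CPM centred on DMSO, from the median profile of the 5. The closest was on chromosome 11 at 62608878 to 62609278, at a distance of 0.0679, with 789 ± 22.1 CPM at 2 h, 678 ± 21.7 CPM at 4 h and 305 ± 11.2 CPM in DMSO (SD, n = 2 each). Next came regions on chromosome 12 at 120729385 to 120729785 (0.117) and on chromosome 1 at 11968404 (0.121), 45187147 (0.127) and 17222518 (0.136). These distances compare with 0.0976 for RNU4ATAC, 0.147 for SNORD118, 0.150 for RNU11, 0.170 for RNU12 and 0.376 for RNU7-1, which helped to set the profile. RNU7-1 was thus the least typical of the 5.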

How the data were processed

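Ser5 Pol II ChIP-seq was analysed in 6 libraries, 2 per group, and the 12 samples made with other antibodies were not analysed here. The authors deposited raw counts per region. Builds hg19 and dm3 and the tools Bowtie2, Trimmomatic 0.32, DiffBind, MACS2 and DESeq2 appear, without roles, in the submitters' processing notes. No source used here states how regions were chosen or whether positions start from 0 or 1. Columns carry letters that were tied to groups and not to the labelled replicate numbers. Libraries of a group differed by more than sampling noise (chi-square per degree of freedom 2.33 in DMSO, 1.50 at 2 h, 2.26 at 4 h).

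Counts were fitted with edgeR 4.0.16 (TMM, quasi-likelihood, all 6 libraries, threshold 0.05) in R 4.3.3, and filterByExpr removed 0 regions. The script was tested on simulated data. Standard errors are the log2 fold change over the square root of F. DESeq2 1.42.0, other scalings, filters and fits, and each library left out were the alternatives. All regions in a window were named, with the nearest neighbour on each side and the 5 most similar regions. Members, lists and alternatives were chosen with earlier results of these data known. An hg19 annotation was not used here, so a planned list of protein partners was not evaluated, and a planned promoter motif search was not run.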

Additional observations from a re-analysis of the deposited data

How the results depend on the processing

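Over the 14 alternatives the log2 fold changes of the 5 regions ran from 0.82 to 1.60 at 2 h and from 0.63 to 1.44 at 4 h, with RNU7-1 under total count scaling the lowest at both times. Since these contrasts were known when the genes were chosen, their sign and calls under the alternatives are no evidence of stability. A covariate for the share taken by the 3 highest regions, chosen after seeing the data, gave 1.38 for RNU11 and 0.92 for RNU7-1 at 2 h. At 4 h it gave 1.105 for RNU11 and 1.161 for RNU4ATAC, against 1.236 and 1.173 in the main fit. RNU12, RNU7-1 and SNORD118 had 1.17, 0.7481 and 1.442 with it at 4 h, against 1.035, 0.6845 and 1.379. For 4 h over 2 h, 69 of 70 kept their sign and 0 were called; RNU12 ranged from -0.23 to 0.046 with 1 library left out, the latter without 2 h library A. The rises over all regions were 166 at 2 h and 120 at 4 h with total count scaling and 96 and 53 with DESeq2, which gave no adjusted p for 7756 and 6346 regions. With 1 library left out they ran from 127 to 365 at 2 h and from 89 to 314 at 4 h, and the calls between the times from 0 to 1. The replicate block by column letter gave 629 and 540 rises and log2 fold changes of 1.46 for RNU11 and 0.88 for RNU7-1 at 2 h; the letters are not known to pair libraries, and differences between A and B correlated across regions at 0.219 for 2 h and DMSO, 0.279 for 4 h and DMSO and 0.158 for 4 h and 2 h. Why the counts moved was not tested. With 2 libraries a group, and 150 and 110 counts at SNORD118 in DMSO, small differences cannot be seen.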

Other observations

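Beyond 100 kb and within 500 kb of the windows lay 63 regions, of which 7 (11.1%) were called higher at 2 h and 4 (6.35%) at 4 h, 3 of them at both times, and 0 lower (edgeR, adjusted p under 0.05). Over all regions 2.22% were called higher at 2 h and 1.52% at 4 h, and the difference from these shares was not tested. Near RNU11, the region on chromosome 1 at 28832384 to 28832784 had 262 ± 6.93 CPM at 2 h and 244 ± 49.0 CPM at 4 h, against 128 CPM in both DMSO libraries. On chromosome 17, 286 kb from the SNORD118 window, the region at 7789898 to 7790298 had 122 ± 12.5 CPM at 2 h and 116 ± 20.9 CPM at 4 h, against 74.6 ± 11.6 CPM in DMSO (SD, n = 2 each). The called region nearest to SNORD3A, on the same chromosome at 19286088 to 19286488 and 193 kb from its window, had a log2 fold change of 0.49 at 2 h (adjusted p = 0.0495) and 0.43 at 4 h (adjusted p = 0.136).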
